A study of Drosophila melanogaster and Drosophila simulans and Drosophila yakuba with 8 samples.

Results

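The genes described here are the chemosensory receptors of Drosophila melanogaster that carry an Or, Gr or Ir symbol, measured in messenger RNA of dissected testes. They were chosen by name alone: every identifier of the deposited gene tables whose current symbol consists of Or, Gr or Ir followed by a number and a letter was taken. This gave 166 genes, with 59 odorant receptors (Or), 57 gustatory receptors (Gr) and 50 ionotropic receptors (Ir), out of 15178 identifiers. The reference gene table holds 185 such symbols, and the 19 without a matching identifier (3 Gr and 16 Ir) were not analysed here.

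Each of 3 groups had 2 single-end libraries. Flies of either knockdown carry the germline driver nos-Gal4 and an RNA interference construct, UAS-Zeus-RNAi or UAS-Caf40-RNAi, and the labels of the wildtype flies name neither. All 6 libraries bear the strain label Oregon-R and come from adults aged 1 to 7 days. Driver-only testes were not analysed here, so the driver, the construct's insertion and the flies' remaining background cannot be told apart from the knockdown itself. The labels do not say whether the 2 libraries of a group come from separate flies, so p-values measure the spread between these libraries, which may be technical. A testis holds germ cells, cyst cells and a muscle sheath together, and in such bulk samples fewer cells of a type and less RNA per cell cannot be told apart.

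Odorant receptors are membrane proteins that form odour-gated cation channels with the shared co-receptor Orco, mainly in neurons of the antenna and maxillary palp. Gustatory receptors are a related family used for sugars, bitter compounds, carbon dioxide and contact pheromones. Ionotropic receptors descend from ionotropic glutamate receptors and work with the broad co-receptors Ir8a, Ir25a and Ir76b in smell, taste, temperature and humidity sensing. Sensory neurons are their textbook site, and a testis is not a chemosensory organ in that sense.

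The libraries held between 12662615 and 24429722 reads on genes. The gene that each construct targets was checked first. Rcd-1r, the gene called Zeus in the labels, had 4.05 and 4.04 RPKM in Zeus knockdown testes, 134.5 and 113.8 RPKM in Caf40 knockdown testes, and 22.2 and 26.4 RPKM in wildtype testes. Rcd-1, the gene called Caf40, had 79.3 and 77.9 RPKM in Zeus knockdown testes, 25.7 and 23.3 RPKM in Caf40 knockdown testes, and 98.2 and 95.1 RPKM in wildtype testes. RPKM is the number of reads per kilobase of exon, scaled to the library's mapped reads, so it allows levels to be compared between genes. Each targeted gene was lowest in its own knockdown. The eye-colour gene white had 88.1 and 79.1 RPKM in Zeus knockdown testes, 70.8 and 79.6 RPKM in Caf40 knockdown testes, and 4.91 and 4.55 RPKM in wildtype testes. Whether that difference comes from the flies' genotype or from the knockdown cannot be told apart. The 9 matched germline markers (bam, aly, twe and others) were all above 1 RPKM in every library, with summed levels of 5744 to 7534 RPKM.

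Most receptor genes were detected only as traces. At least 1 read was counted for 114 and 130 of the 166 genes in the Zeus knockdown libraries, for 145 and 111 in the Caf40 knockdown libraries, and for 134 and 129 in the wildtype libraries. Counts of at least 10 reads were reached by 45 and 57 genes in the Zeus knockdown libraries, by 33 and 44 in the Caf40 knockdown libraries, and by 68 and 61 in the wildtype libraries. The first Caf40 knockdown library thus had the most receptors with any read and the fewest with 10 reads. Thinned to the smallest library's depth, it would be expected to show 144.5 receptors, against 102.2 to 121.3 in the others. Over all identifiers this library was also the highest after thinning, at 13290, against 12710 to 12920 in the others. Of all identifiers, 83.8% to 87.6% had at least 1 read in a library, and 70.2% to 74.9% had at least 10.

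Over all 6 libraries, 74 receptors (44.6%) had a read in every library, against 78.6% of all identifiers. Gr68a and Gr98b had none in any library. A mean of at least 1 RPKM was reached by 30 receptors (18.1%), which were 8 Or, 14 Gr and 8 Ir genes, against 67.4% of all identifiers. The median receptor had a mean of 0.144 RPKM, against 5.743 RPKM over all identifiers. All 166 genes together took 39515 of 112682937 gene reads. At the border of 1 RPKM, Gr47b (1.02), Gr59a (1.01) and Gr64a (1.01) lay just above and Gr39b (0.996), Ir25a (0.983) and Gr28a (0.946) just below.

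**Figure D1:**
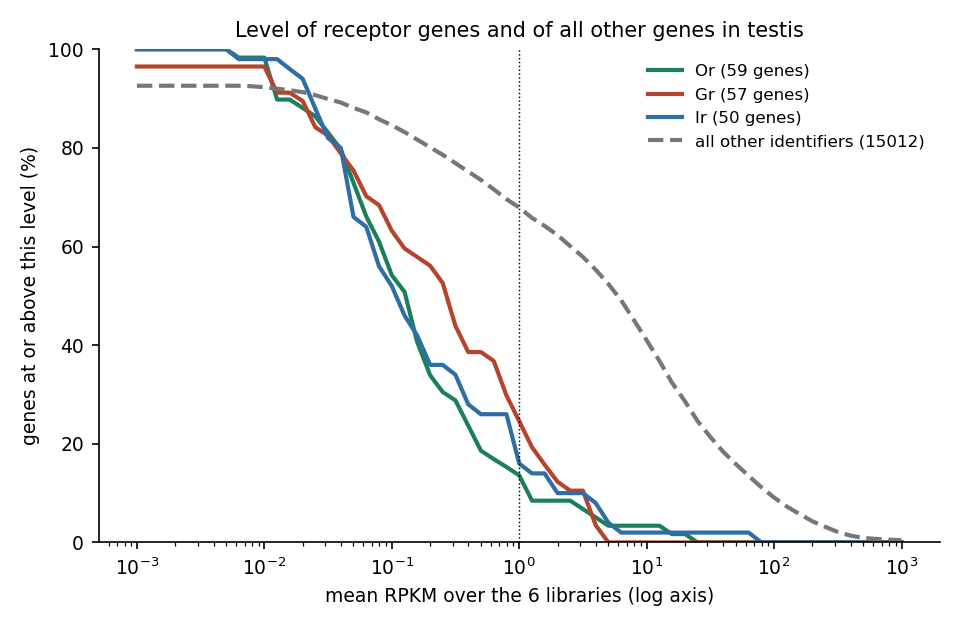
Share of genes (percent, vertical axis) with a mean RPKM over the 6 libraries at or above the level on the horizontal log axis, for the 59 Or, 57 Gr and 50 Ir genes and for the 15012 other identifiers. At 1 RPKM, marked by the dotted line, 13.6% of Or, 24.6% of Gr and 16.0% of Ir genes remain, and the curve of the other identifiers lies far above all 3 families there.

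Counted within groups, 28 receptors were at or above 1 RPKM in both Zeus knockdown libraries, 20 in both Caf40 knockdown libraries and 29 in both wildtype libraries. Of these, 16 were so in all 3 groups: Or23a, Or43b, Or45b, Or67b and Or88a, Gr22f, Gr32a, Gr43a, Gr61a, Gr64d, Gr64e and Gr64f, and Ir7c, Ir21a, Ir41a and Ir75d. In Zeus knockdown testes alone, 8 receptors reached it (Or83c, Or94a, Gr10a, Gr28a, Gr39b, Gr59a, Gr64a and Ir51a). In Caf40 knockdown testes alone, Gr59f and Gr94a did, and in wildtype testes alone 9 did (Or22b, Or69a, Gr47b, Gr92a, Gr93d, Gr97a, Ir25a, Ir75a and Ir76b). These lists follow the 1 RPKM line and are not tests of a difference. Per library, 18.1% and 18.1% of the receptors reached it in Zeus knockdown, 13.9% and 13.3% in Caf40 knockdown, and 19.3% and 18.7% in wildtype testes. Of all identifiers, 65.0% and 65.1% did in Zeus knockdown, 67.3% and 66.5% in Caf40 knockdown, and 66.3% and 66.4% in wildtype testes.

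A few genes carried most of the family totals. Summed over its members, the Ir family had 118.6 and 118.8 RPKM in Zeus knockdown testes, 81.2 and 82.8 RPKM in Caf40 knockdown testes, and 109.7 and 110.6 RPKM in wildtype testes. Without Ir75d the same sums were 28.9 and 27.5, then 20.4 and 20.1, then 40.9 and 41.9 RPKM, so the order of Zeus knockdown and wildtype testes turned round. The Or family summed to 51.8 and 54.7 RPKM in Zeus knockdown testes, 68.2 and 59.0 RPKM in Caf40 knockdown testes, and 56.6 and 53.6 RPKM in wildtype testes. Its leading members were Or23a and Or88a. The Gr family had no single leader and summed to 47.4 and 50.01 RPKM in Zeus knockdown testes, 39.8 and 31.9 RPKM in Caf40 knockdown testes, and 54.0 and 51.9 RPKM in wildtype testes.

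Several of the highest receptors share exons with other genes. In the BDGP6 annotation, exons of 14 of the 30 receptors with a mean of at least 1 RPKM overlap exons of another gene, against 13 of the 136 receptors below that level, and this holds for 6 of the 10 highest. No source used here gives the strand setting of the authors' counting, so reads of a receptor and of a gene on the opposite strand may not be separable. The share of a receptor's counts that comes from such a partner was not tested.

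Ir75d (FBgn0036829, arm 3L), an antennal receptor known for responses to amines, was the highest receptor by far. It had 89.7 and 91.3 RPKM (2184 and 3878 reads) in Zeus knockdown testes, 60.8 and 62.7 RPKM (1509 and 2177 reads) in Caf40 knockdown testes, and 68.8 and 68.7 RPKM (3252 and 3009 reads) in wildtype testes. The 3 groups did not overlap. On the same strand, 90.7% of its exon length is shared with COX6AL2, a gene named for a cytochrome c oxidase subunit. COX6AL2 had 249.2 and 284.1 RPKM in Zeus knockdown testes, 169.9 and 210.9 RPKM in Caf40 knockdown testes, and 233.7 and 243.9 RPKM in wildtype testes. Its groups kept the order seen for Ir75d.

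Or23a (FBgn0026395, arm 2L) followed with 27.1 and 28.0 RPKM in Zeus knockdown testes, 9.50 and 11.9 RPKM in Caf40 knockdown testes, and 28.5 and 28.4 RPKM in wildtype testes. Only 5.1% of its exon length is shared, on the same strand, with Prosbeta4R2, a testis-expressed proteasome subunit gene. Prosbeta4R2 had 160.7 and 162.8 RPKM in Zeus knockdown testes, 57.0 and 72.6 RPKM in Caf40 knockdown testes, and 157.8 and 151.3 RPKM in wildtype testes. Both genes were low in Caf40 knockdown testes and alike in the other groups.

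**Figure D2:**
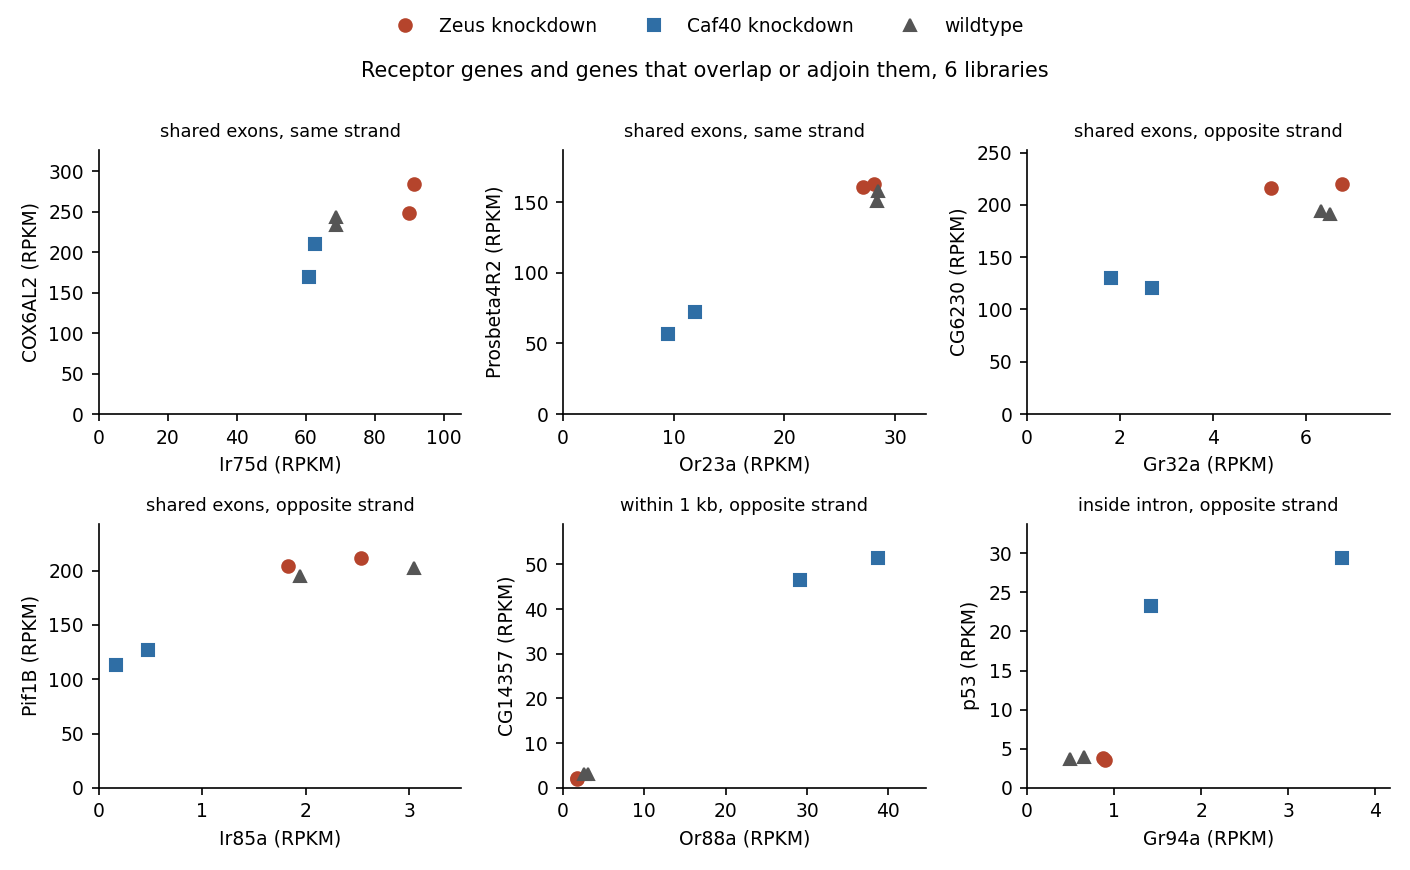
RPKM of 6 receptor genes (horizontal axes) against RPKM of a gene that shares exons with them, adjoins them or encloses them (vertical axes); each point is 1 library, with 2 libraries per group. In each panel the Caf40 knockdown libraries lie apart from the others, and the receptor and its partner lie on the same side. These 6 pairs do not stand for all overlapping pairs. CG11593, which shares exons with Gr64f, had 15.77 and 13.94 RPKM in Caf40 knockdown and 7.883 and 8.399 RPKM in wildtype testes, while Gr64f fell (log2 -1.12). Dhx15, which shares exons with Gr43a, had 47.66 and 41.09 against 25.05 and 24.66 RPKM, while Gr43a was not called (log2 0.06).

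Reads that cross exon junctions were few. Only 32 of the 166 receptors had any, and they summed to 213 reads. Among the 38 receptors with more than 1 exon and at least 100 reads, 23 (60.5%) had no junction read, against 40.4% of 8155 multi-exon genes at that depth, so a lack of junction reads was common in these tables as a whole. Gr32a had 66 junction reads among 832 reads (7.93%, 95% exact binomial interval 6.19% to 9.98%), the highest number. Gr64f had 20 among 365 (5.48%), Gr64a 17 among 164 (10.4%), Or22b 15 among 210 (7.14%) and Gr59f 9 among 193 (4.66%), all above the multi-exon median of 1.10%. At the other end, Ir75d had 0 junction reads among 16009, Or88a had 0 among 1507, and Or23a had 2 among 3473 (0.0576%). The upper limit of the 95% exact binomial interval was 0.023% for Ir75d and 0.244% for Or88a. These intervals and limits cover counting error only.

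**Figure D3:**
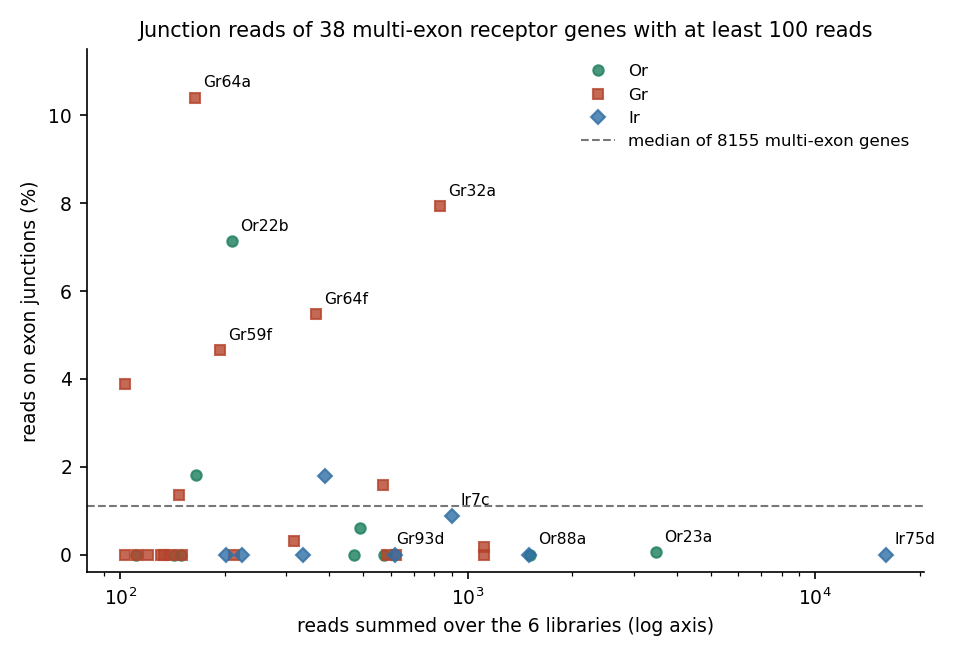
Share of reads on exon junctions (percent, vertical axis) against reads summed over the 6 libraries (horizontal log axis) for the 38 multi-exon receptors with at least 100 reads; the dashed line is the median of 8155 multi-exon genes, 1.10%. Gr64a, Gr32a, Or22b, Gr64f and Gr59f stand highest, and the 3 receptors with the most reads, Ir75d, Or23a and Or88a, lie at or near 0.

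Differences between groups were tested with edgeR's quasi-likelihood test on all 10223 genes with a mean of at least 1 RPKM, with p-values adjusted over all of them by the Benjamini-Hochberg method and a threshold of 0.05. This set holds 30 of the 166 receptors. The 3 groups share 1 estimate of the spread between libraries, though that spread was unequal. The chi-square of read counts between a group's libraries, per degree of freedom, was 2.03 in Zeus knockdown, 13.8 in Caf40 knockdown and 4.96 in wildtype testes. The test does not give the Caf40 knockdown libraries their own, wider spread. A receptor that reached 1 RPKM only through the group in which it is high is bound to differ there, so the counts are read beside those of all genes and no more.

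In Zeus knockdown against wildtype testes, 8 of the 30 receptors rose and 5 fell, together 43.3%, against 36.8% of all genes tested (16.8% higher and 20.0% lower). The risers were Or45b, Gr59a, Gr59e, Gr64d, Gr64e, Ir41a, Ir51a and Ir75d, and the fallers were Or22b, Gr61a, Gr93d, Ir68b and Ir100a. Gr64d and Gr64e hold nearly the same reads but are counted as separate genes in every contrast. The median log2 fold change was 0.23 over these receptors and -0.04 over all genes tested. When libraries were scaled by their totals the split was 6 higher and 6 lower.

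In Caf40 knockdown against wildtype testes, 5 receptors rose and 18 fell, together 76.7%, against 80.5% of all genes tested (41.9% higher and 38.6% lower). The share past the threshold was thus near that of all genes, while the split leaned to lower levels. Or43b, Or88a, Gr59e, Gr59f and Gr94a rose. None of the 8 Ir genes rose and 7 fell, Ir51a being the exception. The median log2 fold change was -0.62 over these receptors and 0.06 over all genes tested. Lower calls numbered 12 with scaling by library totals and 20 when libraries were scaled to the same median RPKM, and higher calls 5 and 4.

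Set directly against each other, Zeus knockdown testes were higher than Caf40 knockdown testes for 20 receptors and lower for 5 (83.3%, against 83.5% of all genes tested, of which 40.2% were higher and 43.3% lower). Both knockdowns are compared with the same wildtype libraries, so the first 2 counts are not independent. Scaling moved the median of all genes by up to 0.40 on the log2 scale in this contrast, and the split was 15 higher and 6 lower with library totals.

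**Figure D4:**
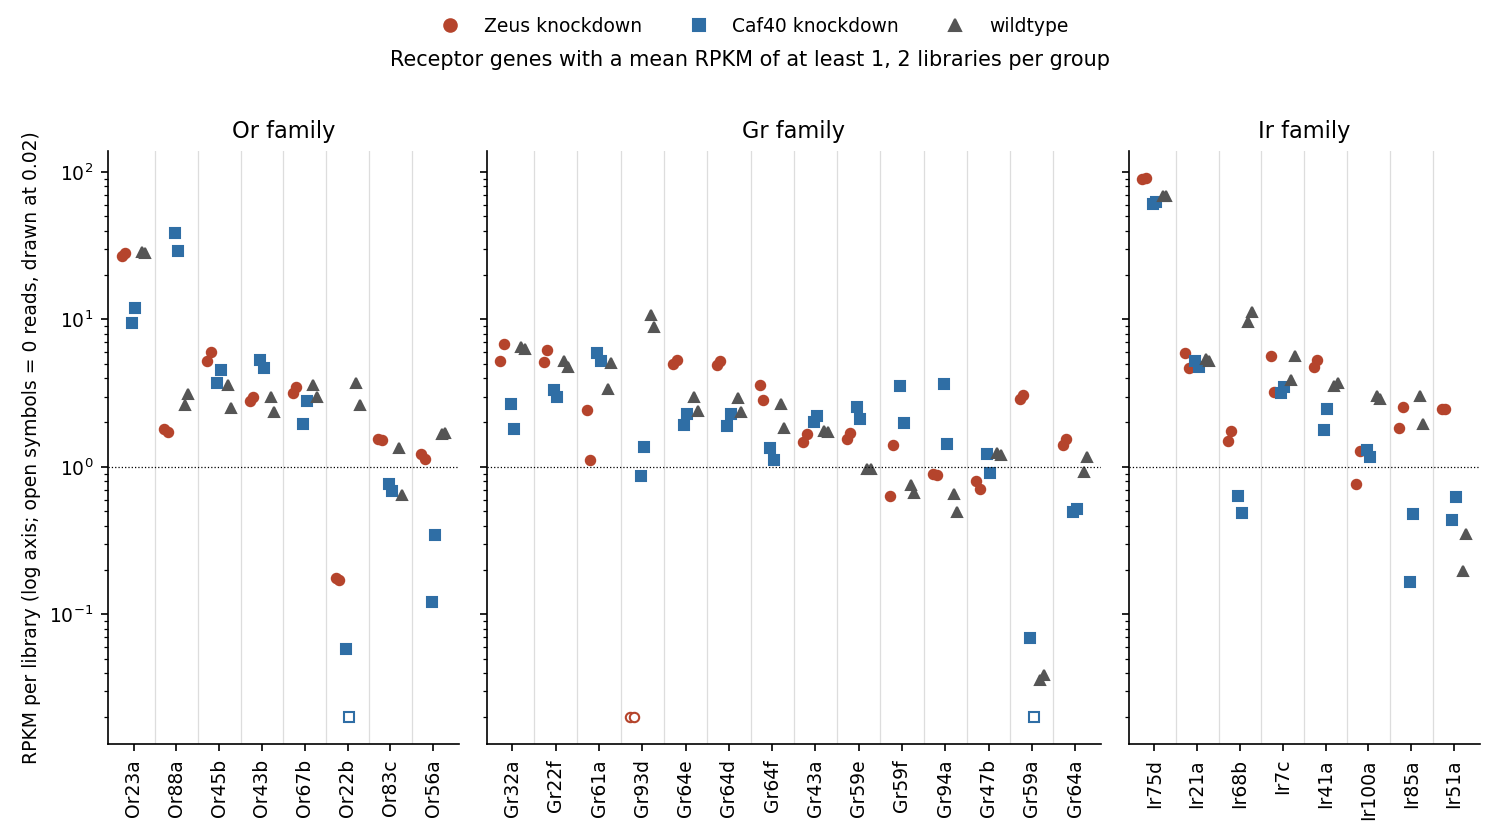
RPKM in each library (log axis) of the 30 receptors with a mean of at least 1 RPKM, by family, with 2 libraries of Zeus knockdown, Caf40 knockdown and wildtype for each gene; open symbols at 0.02 are libraries with 0 reads, and the dotted line is 1 RPKM. Or88a is high in Caf40 knockdown testes, Gr93d and Ir68b are high in wildtype testes, and Gr59a and Ir51a are high in Zeus knockdown testes.

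Or88a (FBgn0038203, arm 3R) was 1 of 2 odorant receptors that rose in Caf40 knockdown testes at 1 RPKM. In antennal neurons it detects odours produced by other flies. Or88a had 1.797 and 1.73 RPKM (28 and 47 reads) in Zeus knockdown testes, 38.8 and 29.2 RPKM (616 and 649 reads) in Caf40 knockdown testes, and 2.64 and 3.10 RPKM (80 and 87 reads) in wildtype testes. The Caf40 knockdown libraries were far above all others, with a log2 fold change of 3.32 ± 0.15 (SE; adjusted p = 1.81e-10). In Zeus knockdown testes the log2 difference from wildtype was -0.56 ± 0.22 (adjusted p = 0.0600). CG14357, which lies within 1 kb on the opposite strand, had 2.13 and 2.08 RPKM in Zeus knockdown testes, 51.4 and 46.6 RPKM in Caf40 knockdown testes, and 3.07 and 3.08 RPKM in wildtype testes. An antisense RNA gene, asRNA:CR44237, covers 85.9% of the exons of Or88a, and the part of either neighbour in its counts was not tested.

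Or23a fell in Caf40 knockdown testes by 1.62 ± 0.12 on the log2 scale (adjusted p = 1.14e-08), with both libraries below all others. In Zeus knockdown testes its log2 difference from wildtype was 0.11 ± 0.11 (adjusted p = 0.448), and its sign was negative with library totals and with limma.

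Or22b (FBgn0026397, arm 2L) is expressed in antennal neurons that respond to fruit esters, together with its tandem neighbour Or22a. It had 0.178 and 0.170 RPKM (3 and 5 reads) in Zeus knockdown testes, 0.0581 and 0 RPKM (1 and 0 reads) in Caf40 knockdown testes, and 3.69 and 2.635 RPKM (121 and 80 reads) in wildtype testes. Both knockdowns lay below wildtype without overlap. The log2 fold change was -4.02 ± 0.42 in Zeus knockdown testes (adjusted p = 7.74e-06). In Caf40 knockdown testes the level was lower than in wildtype by a ratio of 131 (95% counting interval 23.3 to 5220, adjusted p = 6.72e-08). The difference between the knockdowns passed the threshold (adjusted p = 0.0304) but rests on 8 reads against 1, and the call ended with library totals, with limma and without either Zeus knockdown library or the second Caf40 knockdown library.

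Or22a had 0.778 and 0.788 RPKM in Zeus knockdown testes, 0.293 and 0.210 RPKM in Caf40 knockdown testes, and 0.462 and 0.765 RPKM in wildtype testes. The Zeus knockdown libraries of this neighbour were the highest, and its difference from wildtype there did not pass the threshold.

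Or56a, the receptor for the mould odour geosmin, had 1.23 and 1.13 RPKM in Zeus knockdown testes, 0.120 and 0.345 RPKM in Caf40 knockdown testes, and 1.68 and 1.71 RPKM in wildtype testes. It fell in Caf40 knockdown testes by 2.95 ± 0.42 on the log2 scale (adjusted p = 1.32e-05). Or45b, a larval odorant receptor, had 5.20 and 5.996 RPKM in Zeus knockdown testes, 3.70 and 4.51 RPKM in Caf40 knockdown testes, and 3.61 and 2.49 RPKM in wildtype testes, and rose in Zeus knockdown testes by 1.03 ± 0.22 on the log2 scale (adjusted p = 0.00269). Exons of asRNA:CR45281 cover 100% of those of Or45b on the opposite strand.

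Or43b rose in Caf40 knockdown testes (log2 0.68 ± 0.20, adjusted p = 0.00663) and Or67b fell (-0.68 ± 0.23, adjusted p = 0.0142). The call for Or43b ended when libraries were scaled to the same median RPKM and without the second wildtype library. The call for Or67b ended with library totals, with limma, without the first Caf40 knockdown library and without the first wildtype library. Or83c, a receptor for the scent compound farnesol, passed the threshold in neither knockdown against wildtype, and was higher in Zeus than in Caf40 knockdown testes (log2 1.47 ± 0.40, adjusted p = 0.00337).

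Among gustatory receptors, the sugar receptors of the Gr64 cluster on arm 3L that reached 1 RPKM (Gr64a, Gr64d, Gr64e and Gr64f) were higher in Zeus than in Caf40 knockdown testes. Gr64f had 3.57 and 2.86 RPKM in Zeus knockdown testes, 1.35 and 1.12 RPKM in Caf40 knockdown testes, and 2.69 and 1.83 RPKM in wildtype testes. Gr64a had 1.41 and 1.55 RPKM in Zeus knockdown testes, 0.498 and 0.514 RPKM in Caf40 knockdown testes, and 0.930 and 1.16 RPKM in wildtype testes. For both genes the Caf40 knockdown libraries were the lowest and did not overlap the other groups. Against wildtype, Gr64f fell by 1.12 ± 0.28 (adjusted p = 0.00199) and Gr64a fell by 1.25 ± 0.36 (adjusted p = 0.00489) on the log2 scale.

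Gr64d and Gr64e share 97.3% and 99.1% of their exon length with each other, and their counts were the same in 4 libraries and differed by 1 read in the other two, so they amount to 1 measurement. Gr64e had 4.99 and 5.33 RPKM in Zeus knockdown testes, 1.93 and 2.29 RPKM in Caf40 knockdown testes, and 2.98 and 2.39 RPKM in wildtype testes. It rose in Zeus knockdown testes by 1.09 ± 0.15 (adjusted p = 9.80e-05) and fell in Caf40 knockdown testes by 0.56 ± 0.17 (adjusted p = 0.00712) on the log2 scale. The fall was no longer called with library totals, with limma or without the first wildtype library. Gr64b and Gr64c, which also share exons, stayed under 1 RPKM in every library, and at the 10-read minimum neither passed the threshold between the knockdowns. Against wildtype, Gr64c was called lower in Caf40 knockdown testes (log2 -1.07 ± 0.42, adjusted p = 0.0363) and Gr64b was not called.

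Gr61a, another sugar receptor, went the other way. It had 2.42 and 1.12 RPKM (41 and 33 reads) in Zeus knockdown testes, 5.96 and 5.21 RPKM (103 and 126 reads) in Caf40 knockdown testes, and 3.37 and 5.09 RPKM (111 and 155 reads) in wildtype testes. It fell in Zeus knockdown testes by 1.21 ± 0.30 on the log2 scale (adjusted p = 0.00706), a call that ended without the second Zeus knockdown library (-0.65) and without the second wildtype library (-0.89). Gr43a, a fructose receptor, passed the threshold in no contrast and ranged from 1.48 to 2.22 RPKM over the 6 libraries.

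Gr32a (FBgn0041246, arm 2L) senses bitter compounds and a male cuticular pheromone and restrains courtship between males. It had 5.25 and 6.78 RPKM (94 and 212 reads) in Zeus knockdown testes, 2.68 and 1.80 RPKM (49 and 46 reads) in Caf40 knockdown testes, and 6.53 and 6.33 RPKM (227 and 204 reads) in wildtype testes. The Caf40 knockdown libraries were below all others, and against wildtype Gr32a fell by 1.78 ± 0.20 on the log2 scale (adjusted p = 1.35e-06). In Zeus knockdown testes the log2 difference was 0.07 ± 0.17 (adjusted p = 0.758), with a negative sign under library totals, under limma and without the second Zeus knockdown library. CG6230, whose exons cover 10.1% of those of Gr32a on the opposite strand, had 216.0 and 219.7 RPKM in Zeus knockdown testes, 120.6 and 130.3 RPKM in Caf40 knockdown testes, and 191.6 and 193.8 RPKM in wildtype testes. It too was lowest in Caf40 knockdown testes, and its part in the Gr32a counts was not tested.

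Gr93d (FBgn0045468, arm 3R), a member of a cluster that includes the caffeine receptor Gr93a, was not detected in Zeus knockdown testes. It had 0 and 0 RPKM (0 and 0 reads) there, 0.861 and 1.37 RPKM (13 and 29 reads) in Caf40 knockdown testes, and 10.7 and 8.93 RPKM (307 and 238 reads) in wildtype testes. The 3 groups did not overlap. With 3 reads over both libraries taken as the detection floor, it was at least 133-fold lower in Zeus knockdown than in wildtype testes (adjusted p = 3.51e-08) and at least 15.7-fold lower than in Caf40 knockdown testes (adjusted p = 2.25e-05). In Caf40 knockdown testes it fell by 3.31 ± 0.25 on the log2 scale (adjusted p = 3.78e-08). An antisense RNA gene, asRNA:CR44087, covers 88.0% of its exons.

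The other genes of that cluster were low throughout. Gr93c, which adjoins Gr93d, had 0.130 and 0.186 RPKM in Zeus knockdown testes, 0.127 and 0 RPKM in Caf40 knockdown testes, and 0.567 and 0.865 RPKM in wildtype testes, again with wildtype above both knockdowns. Gr93a and Gr93b stayed under 0.14 RPKM in every library, and Gr93b was highest at 0.132 RPKM.

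Gr59a (FBgn0045483, arm 2R) belongs to a group of bitter receptor genes named for their shared map position. It had 2.87 and 3.05 RPKM (41 and 76 reads) in Zeus knockdown testes, 0.0687 and 0 RPKM (1 and 0 reads) in Caf40 knockdown testes, and 0.0361 and 0.0390 RPKM (1 and 1 reads) in wildtype testes. The Zeus knockdown libraries held 117 of its 120 reads. The level there was higher than in wildtype testes by a ratio of 79.7 (95% counting interval 21.6 to 666, adjusted p = 7.15e-07). Against Caf40 knockdown testes the ratio was 104 (18.4 to 4150, adjusted p = 8.46e-08). Gr59b, which adjoins it on the same strand, had 0 reads in both Zeus knockdown libraries.

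Other members of that group moved in various ways. Gr59d, with 1 and 1 reads in Zeus knockdown testes, 4 and 1 reads in Caf40 knockdown testes, and 14 and 22 reads in wildtype testes, was called lower in both knockdowns at the 10-read minimum. Gr59c had 2 reads in all 6 libraries together. Gr59e had 1.55 and 1.70 RPKM in Zeus knockdown testes, 2.53 and 2.13 RPKM in Caf40 knockdown testes, and 0.963 and 0.968 RPKM in wildtype testes, and rose in both knockdowns. Its call in Zeus knockdown testes (log2 0.91 ± 0.29, adjusted p = 0.0232) ended with library totals, with DESeq2 and without any one of the Zeus knockdown or wildtype libraries. Gr59f rose in Caf40 knockdown testes, at 3.54 and 2.00 RPKM against 0.751 and 0.669 RPKM in wildtype testes (log2 1.68 ± 0.37, adjusted p = 6.65e-04).

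Gr94a, a gene without introns that lies inside an intron of p53, had 0.892 and 0.876 RPKM in Zeus knockdown testes, 3.62 and 1.43 RPKM in Caf40 knockdown testes, and 0.656 and 0.496 RPKM in wildtype testes. It rose in Caf40 knockdown testes by a log2 fold change of 1.82 ± 0.41 (adjusted p = 8.73e-04), which was 1.11 without the first Caf40 knockdown library. The damage-response gene p53, on the opposite strand, had 3.51 and 3.84 RPKM in Zeus knockdown testes, 29.4 and 23.3 RPKM in Caf40 knockdown testes, and 3.93 and 3.66 RPKM in wildtype testes. Whether reads from p53 introns enter the Gr94a counts was not tested. Gr22f fell in Caf40 knockdown testes (log2 -0.90 ± 0.20, adjusted p = 6.93e-04), and Gr47b, like Gr43a, passed the threshold in no contrast.

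Among ionotropic receptors, Ir75d rose in Zeus knockdown testes by a log2 fold change of 0.55 ± 0.09 (adjusted p = 5.08e-04) and fell in Caf40 knockdown testes by 0.38 ± 0.09 (adjusted p = 0.00157). The fall was no longer called with library totals or with limma. COX6AL2, with which it shares most of its exons, had log2 differences of 0.31 in Zeus knockdown testes (adjusted p = 0.0618) and -0.55 in Caf40 knockdown testes (adjusted p = 8.71e-04).

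Ir68b (FBgn0036250, arm 3L) had the highest mean wildtype level among the receptors that fell in both knockdowns. It had 1.501 and 1.74 RPKM (37 and 75 reads) in Zeus knockdown testes, 0.636 and 0.483 RPKM (16 and 17 reads) in Caf40 knockdown testes, and 9.54 and 11.2 RPKM (457 and 498 reads) in wildtype testes. The 3 groups did not overlap. It fell by 2.51 ± 0.17 on the log2 scale in Zeus knockdown testes (adjusted p = 6.28e-08) and fell by 4.46 ± 0.20 in Caf40 knockdown testes (adjusted p = 1.94e-10). No exon of another gene overlaps it, and its neighbour yps, within 1 kb on the same strand, had 216.1 and 213.7 RPKM in Zeus knockdown testes, 282.2 and 265.8 RPKM in Caf40 knockdown testes, and 206.6 and 218.9 RPKM in wildtype testes. Ir68a, a receptor of moist-sensing neurons, stayed at or under 0.110 RPKM in every library.

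Ir51a (FBgn0033997, arm 2R), which the BDGP6 annotation lists as a pseudogene, had 2.47 and 2.46 RPKM (39 and 68 reads) in Zeus knockdown testes, 0.434 and 0.621 RPKM (7 and 14 reads) in Caf40 knockdown testes, and 0.195 and 0.351 RPKM (6 and 10 reads) in wildtype testes. The Zeus knockdown libraries were above all others, by a log2 fold change of 3.31 ± 0.37 against wildtype (adjusted p = 1.17e-05). In Caf40 knockdown testes the difference from wildtype was 0.76 ± 0.50 (adjusted p = 0.172).

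Ir85a had 1.83 and 2.54 RPKM in Zeus knockdown testes, 0.167 and 0.478 RPKM in Caf40 knockdown testes, and 3.05 and 1.94 RPKM in wildtype testes, and fell in Caf40 knockdown testes by 3.07 ± 0.39 on the log2 scale (adjusted p = 4.27e-06). Its overlapping opposite-strand gene Pif1B had 203.9 and 211.5 RPKM in Zeus knockdown testes, 113.3 and 126.9 RPKM in Caf40 knockdown testes, and 202.7 and 195.1 RPKM in wildtype testes. The fall of Pif1B on the log2 scale was 0.95, smaller than that of the receptor. Its part in the Ir85a counts was not tested.

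Ir100a fell in both knockdowns, where it fell by 1.31 ± 0.24 in Zeus knockdown testes (adjusted p = 0.00103) and fell by 1.49 ± 0.24 in Caf40 knockdown testes (adjusted p = 4.54e-05). Ir41a, an antennal receptor for polyamines, rose in Zeus knockdown testes by a log2 fold change of 0.63 ± 0.19 (adjusted p = 0.0189) and fell in Caf40 knockdown testes by 0.97 ± 0.21 (adjusted p = 7.33e-04). Its rise was no longer called with library totals, with limma, without the second Zeus knockdown library or without either wildtype library. Ir21a, which serves cool sensing, and Ir7c, a taste receptor for high salt, had log2 fold changes of -0.32 ± 0.13 (adjusted p = 0.0405) and -0.72 ± 0.24 (adjusted p = 0.0137) in Caf40 knockdown testes. Neither call held with library totals or limma. The call for Ir21a also ended with DESeq2, with each of the other filters on low values and without any one of the Caf40 knockdown or wildtype libraries, and that for Ir7c without the second wildtype library.

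**Figure D5:**
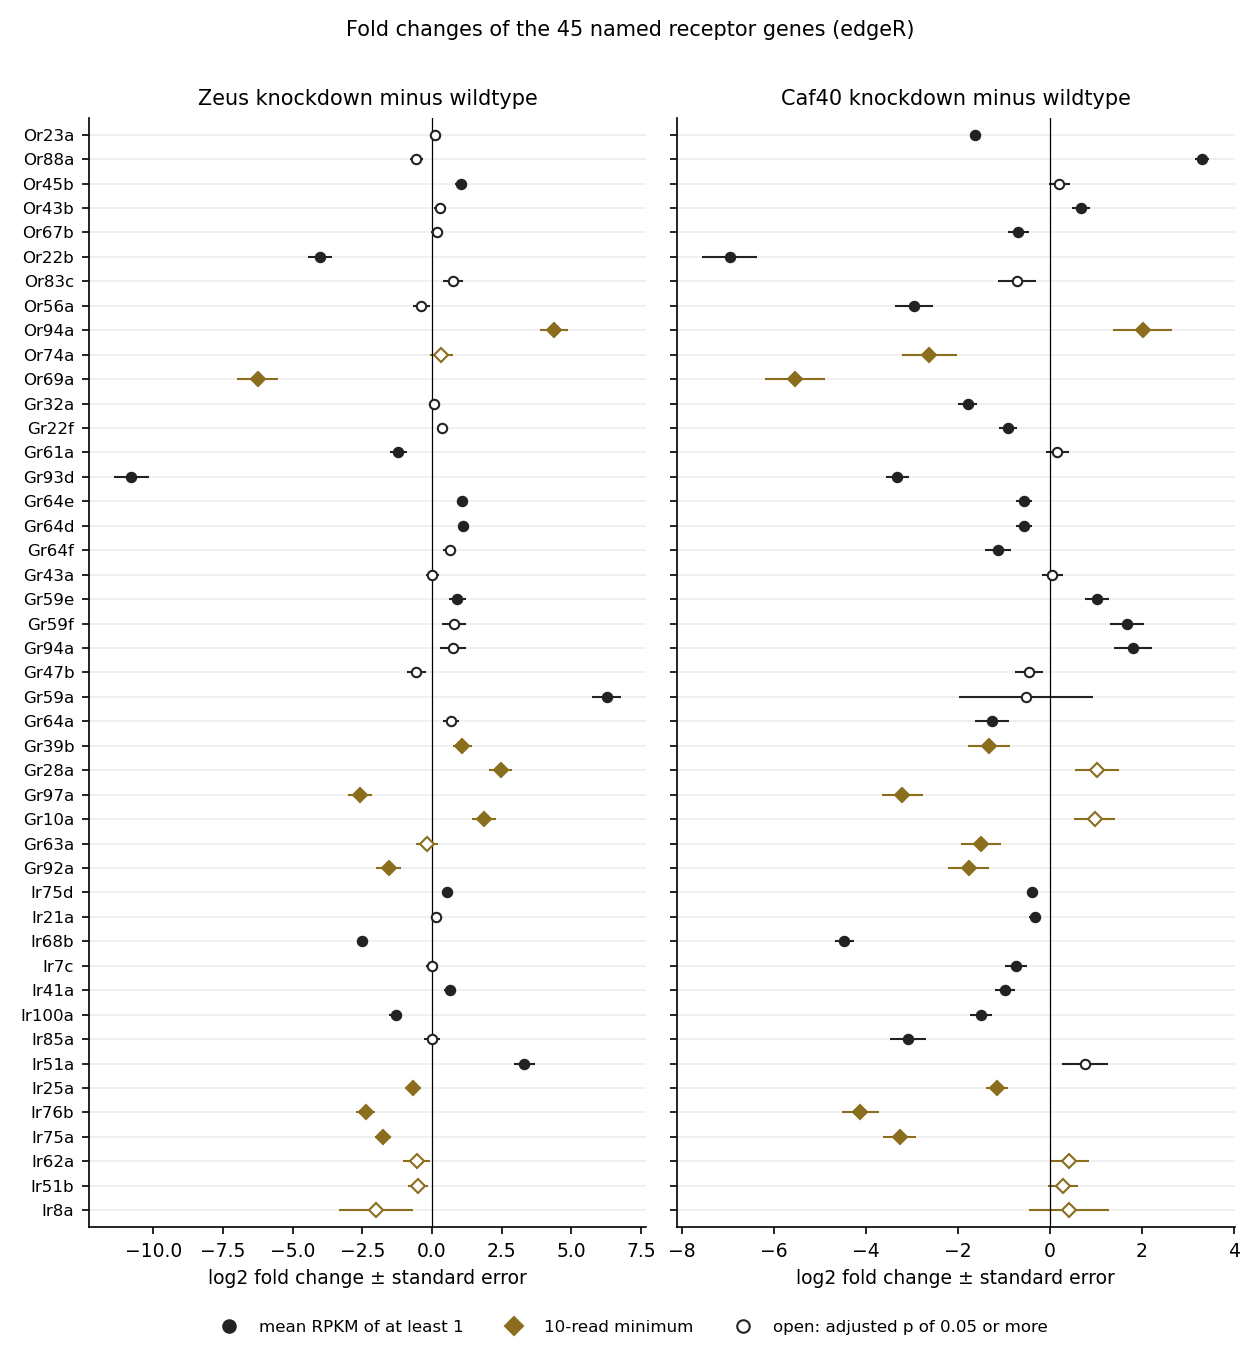
Log2 fold changes with standard errors (horizontal axes) of the 45 named receptors in Zeus knockdown minus wildtype (left) and Caf40 knockdown minus wildtype (right), by family; filled symbols passed an adjusted p of 0.05, circles come from the test at a mean of 1 RPKM and diamonds from the test at a 10-read minimum. The points of genes with 0 to 3 reads in a group, such as Gr93d on the left and Or22b on the right, depend on the prior count of the fit, and the text gives their bounds or counting intervals.

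Receptors below a mean of 1 RPKM were tested with a lower bar of 10 reads over the 6 libraries, which 12778 genes and 117 receptors passed. The 117 include the 30 receptors tested above, and 87 lay below a mean of 1 RPKM. The counts that follow cover all 117, so the 30 enter them again. In Zeus knockdown against wildtype testes 16 of the 117 rose and 18 fell (29.1%, against 30.7% of all genes tested there). In Caf40 knockdown against wildtype testes 7 rose and 43 fell (42.7%, against 71.2%), and Zeus knockdown testes were higher than Caf40 knockdown testes for 43 and lower for 7 (42.7%, against 72.7%). Of all genes tested there, 13.7% were higher and 17.0% lower in Zeus knockdown than in wildtype testes. The same shares were 37.2% and 34.0% in Caf40 knockdown against wildtype testes, and 34.8% and 37.9% in Zeus against Caf40 knockdown testes. Whether read depth plays a part in these shares was not tested. Without the second Zeus knockdown library the first count was 16 in all, and without the second wildtype library 21, against 34.

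The broad co-receptors of the Ir family were scarce. Ir76b had 0.446 and 0.302 RPKM (11 and 13 reads) in Zeus knockdown testes, 0.0794 and 0.170 RPKM (2 and 6 reads) in Caf40 knockdown testes, and 2.29 and 1.85 RPKM (110 and 82 reads) in wildtype testes. Both knockdowns were below wildtype without overlap. On the log2 scale Ir76b fell by 2.37 ± 0.34 in Zeus knockdown testes (adjusted p = 1.68e-04) and fell by 4.11 ± 0.41 in Caf40 knockdown testes (adjusted p = 6.10e-07). Ir25a had 0.832 and 0.763 RPKM in Zeus knockdown testes, 0.626 and 0.817 RPKM in Caf40 knockdown testes, and 1.44 and 1.42 RPKM in wildtype testes, and fell by 1.14 ± 0.24 in Caf40 knockdown testes (adjusted p = 7.94e-04). Its smaller fall in Zeus knockdown testes (log2 -0.70 ± 0.24, adjusted p = 0.0398) was no longer called with DESeq2, with scaling to the same median or without any one of the Zeus knockdown or wildtype libraries. Ir8a had 15 reads in all 6 libraries together.

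Of the 9 receptors that stood at 1 RPKM or more in wildtype testes alone, Gr47b passed the threshold in no contrast, and the choice by wildtype level favours falls in the others. Or69a (FBgn0041622, arm 3L), an antennal receptor for fly and plant odours, had 0 and 0.0206 RPKM (0 and 1 reads) in Zeus knockdown testes, 0.0704 and 0 RPKM (2 and 0 reads) in Caf40 knockdown testes, and 1.51 and 1.16 RPKM (82 and 58 reads) in wildtype testes. Its level was lower than in wildtype by a ratio of 103 in Zeus knockdown testes (95% counting interval 18.1 to 4090, adjusted p = 3.39e-05) and of 45.8 in Caf40 knockdown testes (12.4 to 382, adjusted p = 2.93e-06). Ir75a, an acetic acid receptor, had 0.422 and 0.507 RPKM in Zeus knockdown testes, 0.248 and 0.177 RPKM in Caf40 knockdown testes, and 1.71 and 1.87 RPKM in wildtype testes. Gr97a had 0.183 and 0.384 RPKM in Zeus knockdown testes, 0.358 and 0.171 RPKM in Caf40 knockdown testes, and 1.88 and 2.27 RPKM in wildtype testes. The log2 fold changes of Ir75a were -1.76 in Zeus and -3.26 in Caf40 knockdown testes, and those of Gr97a were -2.59 in Zeus and -3.20 in Caf40 knockdown testes (largest adjusted p = 7.97e-04). Those of Gr92a were -1.56 in Zeus (adjusted p = 0.0189) and -1.76 in Caf40 knockdown testes (adjusted p = 0.00285). The first of these Gr92a calls ended with DESeq2, without the second Zeus knockdown library and without either wildtype library.

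In the opposite direction, Or94a (FBgn0039033, arm 3R), a larval odorant receptor, had 2.06 and 2.10 RPKM (31 and 55 reads) in Zeus knockdown testes, 0.391 and 0.606 RPKM (6 and 13 reads) in Caf40 knockdown testes, and 0.0685 and 0.148 RPKM (2 and 4 reads) in wildtype testes. The 3 groups did not overlap, and the rise in Zeus knockdown testes had a log2 fold change of 4.37 ± 0.50 (adjusted p = 2.47e-05). Its smaller rise in Caf40 knockdown testes (log2 2.03 ± 0.64, adjusted p = 0.0112) was no longer called without the second Caf40 knockdown library or without the first wildtype library. Its tandem neighbour Or94b ranged from 0.198 to 0.709 RPKM. Gr28a had 1.98 and 1.43 RPKM in Zeus knockdown testes, 1.05 and 0.555 RPKM in Caf40 knockdown testes, and 0.378 and 0.283 RPKM in wildtype testes, and rose in Zeus knockdown testes by a log2 fold change of 2.46 ± 0.41 (adjusted p = 6.07e-04). Gr10a, which shares exons with Or10a, rose there by 1.86 ± 0.42 (adjusted p = 0.00501). The call for Gr10a ended without the second Zeus knockdown library.

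Of the receptors for carbon dioxide, Gr63a fell in Caf40 knockdown testes (log2 -1.49 ± 0.44, adjusted p = 0.00790) and Gr21a did not pass the threshold there. The call for Gr63a ended without the second wildtype library. Gr21a rose in Zeus knockdown testes, with 0.488 and 0.280 RPKM (14 and 14 reads) there, 0.205 and 0.0489 RPKM (6 and 2 reads) in Caf40 knockdown testes, and 0.0897 and 0.0968 RPKM (5 and 5 reads) in wildtype testes (adjusted p = 0.0253). Ir84a, an antennal receptor that promotes male courtship, had 0 reads in both Caf40 knockdown libraries and 31 in wildtype testes, at least 6.76-fold lower (adjusted p = 4.92e-04). Or47b, a receptor of male antennal neurons tied to courtship, had 1 read in all 6 libraries together, and Or67d, the receptor for the male pheromone cVA, had 8. Or74a fell in Caf40 knockdown testes (log2 -2.61 ± 0.59, adjusted p = 0.00126) and was not called in Zeus knockdown testes. Ir51b and Ir62a passed the threshold in no contrast at the 10-read minimum.

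Genes that work beside the receptors were taken from fixed lists of olfactory accessory genes, odorant binding proteins, ppk channels, CheA and CheB genes, glutamate receptors, TRP channels and transduction components. Of 138 matched genes, 49 were tested at 1 RPKM. In Zeus knockdown testes 14 rose and 6 fell, and in Caf40 knockdown testes 14 rose and 25 fell, beside 36.8% and 80.5% of all genes called in these contrasts. Their median log2 fold changes were 0.08 and -0.33, against -0.04 and 0.06 over all genes tested. With library totals the Zeus knockdown split was 7 higher and 11 lower.

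Orco, the partner of every odorant receptor, had 0.995 and 0.799 RPKM in Zeus knockdown testes, 0.117 and 0.223 RPKM in Caf40 knockdown testes, and 1.00 and 0.620 RPKM in wildtype testes. At a 10-read minimum it fell in Caf40 knockdown testes by 2.35 on the log2 scale (adjusted p = 5.58e-04), and its log2 difference in Zeus knockdown testes was 0.26 (adjusted p = 0.608). Arr1, an arrestin known for shutting off rhodopsin, had 30.2 and 30.4 RPKM in Zeus knockdown testes, 2.52 and 3.34 RPKM in Caf40 knockdown testes, and 34.9 and 32.0 RPKM in wildtype testes. It fell in Caf40 knockdown testes by 3.71 ± 0.13 on the log2 scale (adjusted p = 4.93e-11). Its list of transduction genes mostly went the other way there, with 8 of 10 higher and 2 lower. Of all genes tested, 41.9% were higher and 38.6% lower there. The median log2 fold change of the list was 0.61, with Galphao at 1.20 and Itpr at 0.80. Among the 7 tested TRP channels 6 fell in Caf40 knockdown testes, beside 38.6% of all genes lower there, with Pkd2, which sperm need, and brv1, brv2 and brv3 at -1.60, -1.41, -2.14 and -1.66.

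The odorant binding proteins summed to 3087 and 3146 RPKM in Zeus knockdown testes, 2194 and 2457 RPKM in Caf40 knockdown testes, and 2385 and 2515 RPKM in wildtype testes, far above the receptors. Most of each sum came from Obp44a, with 1734 to 2373 RPKM over the libraries, and Obp99a followed with 288.3 to 587.4 RPKM. Of the 52 genes, 15 to 19 were at or above 1 RPKM in a library. Of 17 tested, 6 rose and 3 fell in Zeus knockdown testes and 3 rose and 10 fell in Caf40 knockdown testes, again beside 36.8% and 80.5% of all genes called. Obp58c had 0.516 and 0.518 RPKM in Zeus knockdown testes, 5.82 and 7.32 RPKM in Caf40 knockdown testes, and 9.76 and 9.18 RPKM in wildtype testes. It fell in Zeus knockdown testes by 4.02 ± 0.33 on the log2 scale (adjusted p = 5.47e-07). Obp56d rose in both knockdowns, with log2 fold changes of 2.13 in Zeus and 1.62 in Caf40 knockdown testes.

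Markers of other cells were measured beside these counts. The 3 matched neuron markers (nSyb, Syt1 and Syx1A) summed to 23.6 and 19.99 RPKM in Zeus knockdown testes, 35.4 and 30.4 RPKM in Caf40 knockdown testes, and 22.2 and 23.0 RPKM in wildtype testes, with none at 0. The higher Caf40 knockdown sum came from Syx1A, which rose there (log2 0.77), while nSyb fell (log2 -0.57, adjusted p = 0.00146). The 3 muscle sheath markers summed to 30.7 and 40.1 RPKM in Zeus knockdown testes, 56.9 and 39.2 RPKM in Caf40 knockdown testes, and 25.6 and 25.3 RPKM in wildtype testes. All 3 were called higher in Zeus knockdown testes and 2 in Caf40 knockdown testes, beside 16.8% and 41.9% of all genes tested. The 5 hub and cyst markers summed to 36.2 to 44.9 RPKM over the libraries, and in Caf40 knockdown testes 2 rose, among them tj (log2 1.05), and 2 fell. Of all genes tested, 41.9% rose and 38.6% fell there. The glial marker repo was at or under 0.416 RPKM, and the 3 eye markers summed to at most 2.41 RPKM in any library. The 5 accessory gland markers summed to 14.7 and 11.8 RPKM in Zeus knockdown testes, 2.55 and 2.58 RPKM in Caf40 knockdown testes, and 9.10 and 7.66 RPKM in wildtype testes, so their sum was lowest in Caf40 knockdown testes. Of the 4 tested, 2 fell there, beside 38.6% of all genes, and none rose. Mst57Da had a log2 difference of 1.36 there that was not called. In Zeus knockdown testes 2 of the 4 rose and 1 fell, beside 16.8% and 20.0% of all genes. SP, also on this list, was at 0 in both Caf40 knockdown libraries and in 1 wildtype library. Of the 9 germline markers, 7 fell in Caf40 knockdown testes, beside 38.6% of all genes lower there. Among the 7 were can (log2 -1.86), twe (log2 -1.17) and ProtA (log2 -1.19). Only the differentiation gene bam rose there, by a log2 fold change of 3.22 ± 0.12 (adjusted p = 5.28e-11). The part of these differences in cell content in the receptor counts was not tested.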

How the data were processed

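Testis libraries of D. melanogaster were analysed: 2 of Zeus knockdown, 2 of Caf40 knockdown and 2 of wildtype flies, grouped by their titles. Reads were aligned with Bowtie to the dm3 build, per the submitters' processing notes; no source used here gives the counter, annotation or strand setting. The deposited tables hold, per their file headers, read counts per gene, their split into genome and exon junction reads, and an RPKM value, all made by the authors. Symbols, arms and exon overlaps came from BDGP6 (12862 of 15178 identifiers matched, 84.7%), so no coordinates are given.

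Deposited counts were tested with edgeR 4.0.16 (quasi-likelihood, TMM scaling, 3 groups sharing the dispersion, R 4.3.3) on genes with a mean of at least 1 RPKM, and on genes with at least 10 reads for receptors below that level. Adjusted p-values are Benjamini-Hochberg over all genes tested. Receptors past the threshold in the test at a mean of 1 RPKM, receptors reaching 1 RPKM as a mean in any group and the co-receptors are named. Up to 4 genes per partner list are named as well. Members and lists were chosen with earlier results of these data known. The alternatives used DESeq2 1.42.0 and limma 3.58.1 on log2(RPKM + 1) and log2(RPKM + 0.1), other scalings and filters, and left-out libraries; the test was tried on simulated data. The 2 libraries of other species were not used.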

Additional observations from a re-analysis of the deposited data

Results flagged for a closer look

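In 4 receptors tested at a mean of 1 RPKM the knockdowns moved in opposite directions against the shared wildtype libraries. Each move was past the threshold, and the direct test between the knockdowns passed as well. The log2 difference of Zeus knockdown minus Caf40 knockdown testes was 1.65 ± 0.16 for Gr64d (adjusted p = 2.70e-07) and 1.66 ± 0.16 for Gr64e (adjusted p = 2.58e-07), which count the same reads. It was 1.60 ± 0.21 for Ir41a (adjusted p = 5.73e-06) and 0.93 ± 0.09 for Ir75d (adjusted p = 2.90e-07). With library totals and with limma, each of the 4 lost 1 of its opposite calls against wildtype: the fall in Caf40 knockdown testes for Gr64d (-0.34 by library totals), Gr64e (-0.35) and Ir75d (-0.16), and the rise in Zeus knockdown testes for Ir41a (0.46). All 4 differences between the knockdowns kept their sign and their call in every alternative run. At the 10-read minimum Gr39b also moved both ways, with log2 fold changes of 1.09 ± 0.35 in Zeus and -1.32 ± 0.46 in Caf40 knockdown testes. Its log2 difference between the knockdowns was 2.41 ± 0.44, and all 3 were called. The rise of Gr39b in Zeus knockdown testes was no longer called with library totals, with DESeq2 or with limma on log2(RPKM + 0.1). That call also ended without any one of the Zeus knockdown or wildtype libraries. The call for its fall in Caf40 knockdown testes ended without the second Caf40 knockdown library (-0.95) and without the first wildtype library (-1.24).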

How the results depend on the processing

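The counts of receptors past the threshold followed the filter on low values. With at least 1 read, at least 10 reads or edgeR's filterByExpr they were 34, 34 and 31 in Zeus knockdown against wildtype testes, 50, 50 and 43 in Caf40 knockdown against wildtype testes, and 47, 50 and 45 between the knockdowns, against 13, 23 and 25 at a mean of 1 RPKM. Leaving out 1 library gave 10 to 15, 19 to 23 and 21 to 25 at 1 RPKM, and 16 to 38 in Zeus knockdown testes at 10 reads. For partner genes, filterByExpr gave 33 calls in Zeus knockdown testes, and the read filters and filterByExpr gave 65, 66 and 63 in Caf40 knockdown testes. Leaving out 1 library gave 8 to 22 in Zeus knockdown testes, with 8 without its second library and 11 without its first or either wildtype library. The median number of receptors detected per library was 51 at 10 reads, 30 at 1 RPKM and 12.5 with a junction read, against 111 to 145 receptors at 1 read. Without the top member the mean family sums were 35.1 (Or), 40.9 (Gr) and 29.9 (Ir) RPKM, and the Ir sum divided by TMM factors was 106 RPKM, against 103.6. Signs turned for Or23a in Zeus knockdown testes (-0.05 by library totals, -0.04 by limma with either pseudocount), for Gr32a there (-0.09 by library totals, -0.09 and -0.11 by limma, and -0.14 to 0.23 over left-out libraries) and for Gr59a in Caf40 knockdown testes (-2.94 to 0.53 over left-out libraries), none of them called. The cause was not tested. Scaling by library totals moved the median of all genes by -0.16, 0.22 and -0.38 on the log2 scale in the 3 contrasts, and bringing all libraries to 1 median RPKM moved it by 0.10, -0.30 and 0.40. With the replicate block the counts were 14, 23 and 25. Replicate numbers did not pair the samples (correlations of deviations 0.0218, -0.0367 and -0.0517). Of the single values over all settings but left-out libraries, 837 kept their direction and side of the threshold, 56 lost the threshold, 4 gained it and 6 changed sign. Each of these values is 1 gene in 1 contrast and 1 setting. Of the 88 pairs of named gene and contrast with a call, 27 lost it in at least 1 alternative, left-out libraries included. Calls given above for Gr21a, Gr59d, Gr64c and Ir84a are not among these pairs, and how they depend on the alternatives is not given here. The pseudocount in the limma fits understates the folds of low genes.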
